A study of Mus musculus with 4 samples.

Results

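Rhox5, Rhox6 and Rhox9 are homeobox genes of the reproductive homeobox cluster on the mouse X chromosome. They were taken by symbol from the table that names the probe sets of the array: every probe set annotated to 1 of these symbols alone was a member, which gave 3 probe sets (1 per gene) of 45101 and 3 genes of 18193. All 3 passed the filter on dim genes and were among the 12485 genes tested. The genes were chosen by their measured signals between the genotypes, which earlier results of these data had shown to differ, so their genotype differences are given as a description without a test.

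The data were Affymetrix array signals from 4 cultures of the mouse embryonic stem (ES) cell line E14.1, with 1 array per group. The groups were Sall4 delta/- cells (line KO1, labelled null) on blasticidin-resistant mouse embryonic fibroblast feeders, Sall4 flox/- cells (line HET18, heterozygous) on the same feeders, KO1 cells on gelatin without feeders and HET18 cells on gelatin without feeders. All cells, the heterozygous ones included, lacked 1 Sall4 allele, carried a blasticidin-resistance gene targeted to Oct3/4 and were grown with LIF and blasticidin, which keeps cells that express Oct3/4. Each genotype was 1 line, so a difference between lines and a difference between genotypes cannot be told apart. Without replicate arrays the spread inside a group is unknown.

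Sall4 signal was higher on the arrays labelled null than on the heterozygous arrays. Its brighter probe set read 1452.4 in cells labelled null and 780.8 in heterozygous cells on feeders, and 1670.5 in cells labelled null and 1126.5 in heterozygous cells without feeders. The dimmer Sall4 probe set read 218.8 in cells labelled null and 88.6 in heterozygous cells on feeders. Without feeders it read 380.5 in cells labelled null and 147.2 in heterozygous cells. Where these probe sets lie relative to the deleted part was not known, so they do not check the genotype. The labels alone set the direction of every genotype difference below. Pou5f1, the gene of Oct3/4, read 1187.4 in cells labelled null and 1112.1 in heterozygous cells on feeders, and 977 in cells labelled null and 1284.2 in heterozygous cells without feeders. The 13 ES cell markers had summed signals of 20969 to 26732 over the 4 arrays. Of these 13, 6 were lower and 0 higher in cells labelled null in both feeder conditions, 46.2% lower against 29.1% of all genes tested. The 29 fibroblast markers summed to 37866 in cells labelled null and 31101 in heterozygous cells on feeders, and to 12979 in cells labelled null and 5817 in heterozygous cells without feeders. In such bulk RNA, fewer cells of a type and less RNA per cell cannot be told apart.

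The Rhox genes encode homeodomain transcription factors expressed mainly in testis, ovary and placenta, and the cluster is known in the mouse as a target of repression by DNA methylation. Rhox5, first described as Pem, is active in ES cells, extraembryonic tissue and, under androgen control, Sertoli cells, and is transcribed from a proximal and a distal promoter. Rhox6 and Rhox9, first described as the placenta-specific homeobox genes Psx1 and Psx2, are related genes known from trophoblast and germ cells. RefSeq lists 42 Rhox genes and pseudogenes, all on the X chromosome, of which 33 are protein-coding, and 4 had a probe set of their own here. The fourth was Rhox13, a gene at the far end of the cluster known from male germ cells.

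The bases before the Rhox5 start are shown because Rhox5 was the member with the largest difference. The window is the 250 bases before the RefSeq start on the plus strand (GRCm38.p6, chrX:37754358-37754607), with each CG dinucleotide in capitals.
Rhox5: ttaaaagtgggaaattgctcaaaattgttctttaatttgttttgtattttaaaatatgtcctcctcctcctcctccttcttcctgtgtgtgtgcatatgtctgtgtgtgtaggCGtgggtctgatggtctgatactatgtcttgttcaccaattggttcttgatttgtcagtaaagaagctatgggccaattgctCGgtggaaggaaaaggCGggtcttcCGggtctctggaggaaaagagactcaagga
The window held 4 CG dinucleotides, against a median of 6 over 32851 windows of the same length, 55.6% of which held more. The sequence GGCGGG occurred 1 time and CCGGAAG 1 time, each over 1 of the CG dinucleotides, counting both strands. CCAAT occurred 3 times, with an overlap between 2 of the matches, and TATAAA did not occur. Of all windows, 32.5% held GGCGGG, 6.91% held CCGGAAG, 33.8% held CCAAT and 12.4% held TATAAA. These motifs were picked with the sequence in view, and a match is not a binding site. No methylation was measured, and which of the known Rhox5 promoters this start represents was not tested.

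All 3 genes had lower signals on the arrays labelled null than on the heterozygous arrays in both feeder conditions. Rhox5 read 247.1 in cells labelled null and 2660.1 in heterozygous cells on feeders, and 117.8 in cells labelled null and 2229.4 in heterozygous cells without feeders. Both heterozygous arrays were high and both arrays labelled null were low for this gene. Its signal in cells labelled null was thus 9.29% of that in heterozygous cells on feeders, and 5.28% without feeders, 10.8-fold and 18.9-fold lower.

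Rhox6 read 123.8 in cells labelled null and 384.7 in heterozygous cells on feeders, and 152.5 in cells labelled null and 362.3 in heterozygous cells without feeders. Rhox9 read 109.3 in cells labelled null and 317.9 in heterozygous cells on feeders, and 97.6 in cells labelled null and 282.8 in heterozygous cells without feeders. For both genes the arrays labelled null lay below the heterozygous arrays with no overlap. Nothing is read from this, since the members were chosen with this contrast known. Of all tested genes, 29.1% were lower in cells labelled null in both feeder conditions, and the share without overlap was not counted. The Rhox6 signal in cells labelled null was 32.2% of that in heterozygous cells on feeders, and 42.1% without feeders, and the Rhox9 signal 34.4% and 34.5%. The plot of signals by array shows this separation together with Rhox13.

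**Figure D1:**
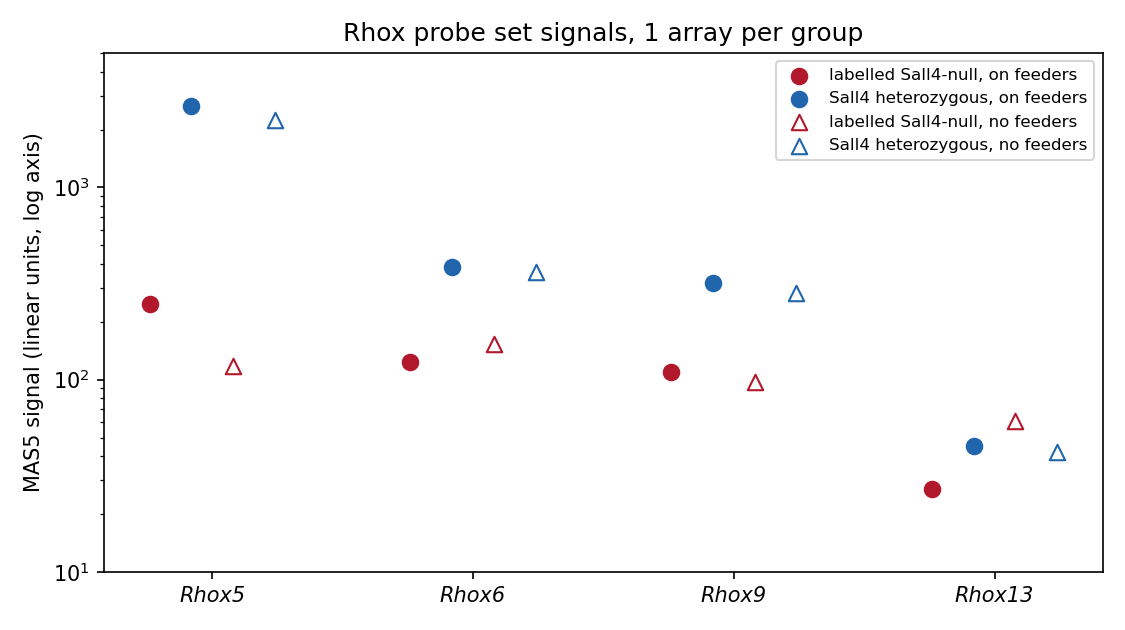
MAS5 signals (linear units on a log axis) of the probe sets of Rhox5, Rhox6, Rhox9 and Rhox13, 1 point per array. Circles are cultures on feeders and open triangles cultures without feeders, in red for cells labelled Sall4-null and in blue for heterozygous cells. The red points lie below the blue ones for Rhox5, Rhox6 and Rhox9, while for Rhox13 the red triangle (60.7) is the highest point and the red circle (27) the lowest.

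On the scale of log2(signal + 4.6), where the added offset draws the differences of weak signals towards 0, Rhox5 differed by -3.40 on feeders and -4.19 without feeders, given as labelled null minus heterozygous. Rhox6 differed by -1.60 and -1.22, and Rhox9 by -1.50 and -1.49. Each of the 3 members was at least 2-fold lower in both feeder conditions, a rule without a test that 0.801% of the tested genes met (100 of 12485). Nothing is read from that count, since the members were chosen with this contrast known. Averaged over the feeder conditions, Rhox5 had the largest negative difference of the 12485 genes, Rhox9 stood at rank 66 and Rhox6 at rank 75. On feeders alone Rhox5 stood at rank 3, Rhox6 at 75 and Rhox9 at 97. Without feeders the ranks were 1 for Rhox5, 229 for Rhox6 and 122 for Rhox9. The ranks are likewise a description from which nothing is read.

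With the difference of Pou5f1 in the same pair of arrays subtracted, which sets each value against the selected Oct3/4-expressing cells, Rhox5 differed by -3.50 on feeders and -3.80 without feeders. The values for Rhox6 became -1.69 and -0.83, and those for Rhox9 -1.60 and -1.10. This scaling was added after the data were seen. It left each of the 3 genes lower in cells labelled null in both conditions.

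**Figure D2:**
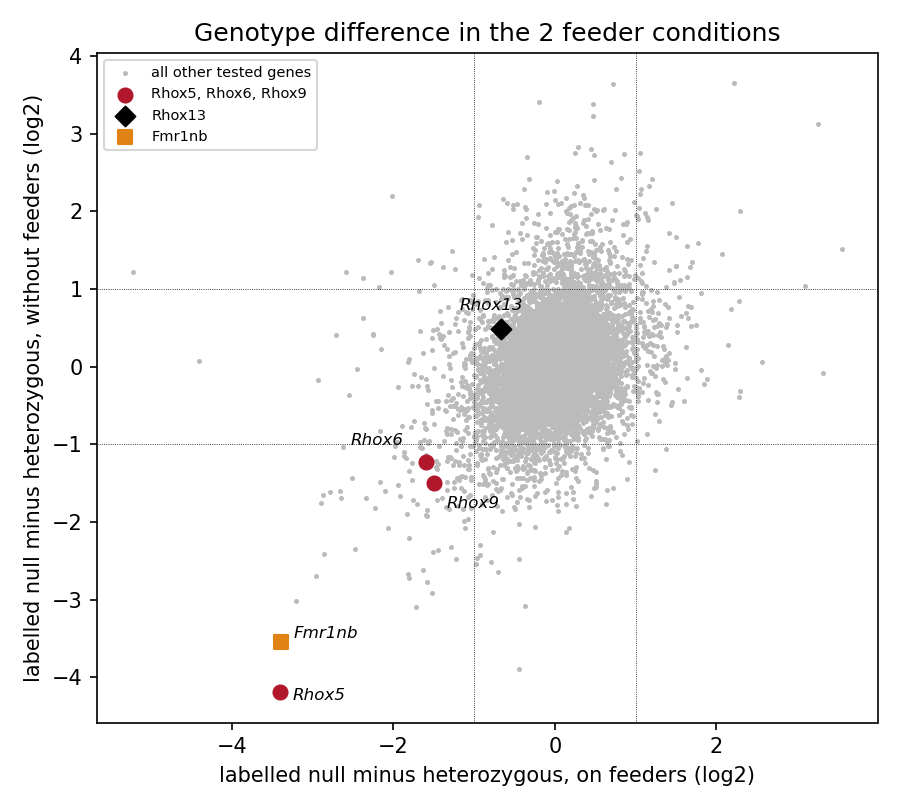
Difference in log2(signal + 4.6), labelled null minus heterozygous, on feeders (horizontal axis) and without feeders (vertical axis), with 1 point per tested gene and dotted lines at a 2-fold difference. Rhox5 (-3.40 and -4.19) and Fmr1nb (-3.39 and -3.55) lie at the lower left, Rhox6 and Rhox9 lie beside each other nearer the centre, and Rhox13 lies among the bulk of genes.

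The members differed among themselves mainly in the size of the difference. The distance between their profiles was taken as the root mean square difference of log2 values over the 4 arrays, after each gene's mean was subtracted. It was 0.17 between Rhox6 and Rhox9, 1.19 between Rhox5 and Rhox9 and 1.28 between Rhox5 and Rhox6. Whether the Rhox6 and Rhox9 probe sets also bind each other's transcripts was not tested.

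Rhox13 did not share the pattern of the 3 members. It read 27 in cells labelled null and 45.4 in heterozygous cells on feeders, and 60.7 in cells labelled null and 42 in heterozygous cells without feeders. Its log2 difference was -0.66 on feeders and 0.49 without feeders, and its fitted genotype difference over both was -0.09 (SE 0.33, adjusted p = 0.944 by limma). It was the 1 gene measured of the 31 other Rhox genes listed.

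The genes on either side of the cluster on the X chromosome showed no difference of this size. The comparison took the 10 nearest protein-coding genes with a tested probe set on each side, in RefSeq order. Of these 20 genes, 6 were lower and 10 higher in cells labelled null in both feeder conditions, and 4 differed in opposite directions. Their median log2 difference was 0.03 on feeders and 0.02 without feeders, against 0.01 and 0.00 over all genes tested. The lowest value was -1.05, for the ribosomal protein gene Rpl39 without feeders, where it read 32.8 in cells labelled null and 72.6 in heterozygous cells. On feeders Rpl39 read 64.8 in cells labelled null and 74.4 in heterozygous cells, and it was the 1 gene of the 20 to reach a 2-fold difference in either condition. The highest value was 0.52, for Zbtb33 on feeders, which encodes the methyl-CpG-binding protein Kaiso and is the nearest tested gene on the Rhox13 side. None of the 20 passed the limma test for genotype, which called 0.032% of all tested genes (4 of 12485), and 1535 genes had an unadjusted p under 0.05.

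**Figure D3:**
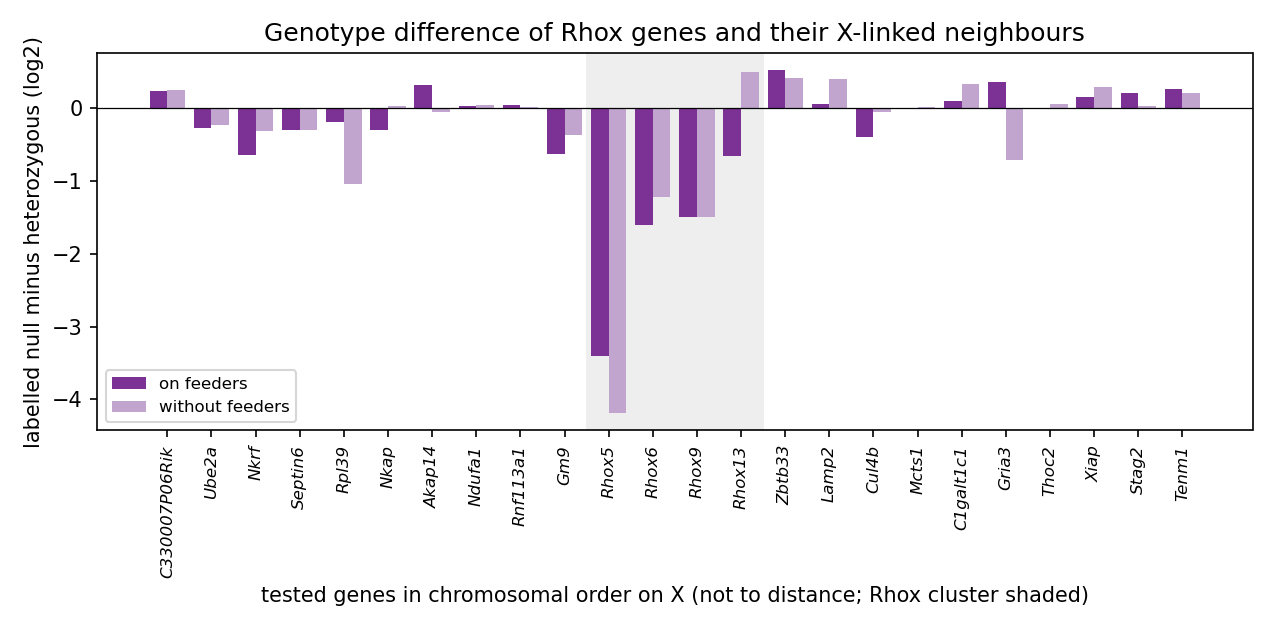
Difference in log2(signal + 4.6), labelled null minus heterozygous, for the 4 measured Rhox genes (shaded) and 10 tested genes on each side, in chromosomal order without distances. Dark bars are pairs on feeders and light bars pairs without feeders; the bars of Rhox5, Rhox6 and Rhox9 extend below those of all 20 neighbours, whose values lie between -1.05 and 0.52.

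Feeders were compared with no feeders in a model with genotype as the other factor. The members were not chosen on this contrast alone, but they were chosen with earlier results of these data known. None of the 3 genes passed the test, against 4.77% of all tested genes (595 of 12485). Rhox5 was higher on feeders in both genotypes, with 247.1 on feeders and 117.8 without in cells labelled null, a 2.10-fold difference, and 2660.1 on feeders and 2229.4 without in heterozygous cells, a 1.19-fold difference. Its fitted log2 difference, feeders minus no feeders, was 0.65 (SE 0.20, 95% interval 0.14 to 1.15, unadjusted p = 0.0203, adjusted p = 0.147 by limma over all genes).

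Rhox9 read 109.3 on feeders and 97.6 without in cells labelled null, and 317.9 on feeders and 282.8 without in heterozygous cells. Its fitted difference was 0.16 (SE 0.17, 95% interval -0.25 to 0.58, adjusted p = 0.623 by limma). Rhox6 was lower on feeders in cells labelled null, at 123.8 on feeders against 152.5 without, and higher in heterozygous cells, at 384.7 on feeders against 362.3 without. Its fitted difference was -0.10 (SE 0.18, 95% interval -0.54 to 0.34, adjusted p = 0.778 by limma). The interval of Rhox6 reaches down to a difference of -0.54 and up to 0.34, so changes of those sizes remain possible.

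Fibroblast markers moved with feeders over the same arrays: 25 of 29 tested were called higher on feeders and 0 lower, against 3.88% of all genes called higher. Some of the 29 passed the filter on dim genes only through the arrays on feeders, so the count is not independent of that filter. Without feeders, Col6a3 read 5.2 in cells labelled null and 9.2 in heterozygous cells, both under the filter signal of 9.46. Postn read 12.8 in cells labelled null and 1.4 in heterozygous cells without feeders. The size of such differences depends on the offset. Summed marker signals also differed between the genotypes in both feeder conditions, as given above. Of the 29, 23 were higher and 0 lower in cells labelled null in both conditions, 79.3% higher against 30.5% of all genes tested. Their median log2 difference, labelled null minus heterozygous, was 0.44 on feeders and 1.18 without feeders. The part of feeder RNA in the Rhox signals was not tested.

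Rhox6 and Rhox9 are known from placenta, and a list of other placenta and trophoblast genes was set beside them. Of its 24 tested members, 7 fell on feeders and 0 rose, against 0.881% of all genes called lower. Krt8 and Krt18, keratins of simple epithelia, had log2 differences of -2.88 (SE 0.17, adjusted p = 0.00143) and -2.42 (SE 0.27, adjusted p = 0.00961). Cdx2, a transcription factor of trophectoderm, read 4.9 on feeders and 82.2 without in cells labelled null, and 2.1 on feeders and 17.1 without in heterozygous cells. Its readings with feeders were both below the filter's 9.46, so Cdx2 passed the filter through the arrays without feeders, and its fitted difference of -2.44 (SE 0.45, adjusted p = 0.043) depends on the offset. The same holds for Gata3, at 9.2 in cells labelled null and 4 in heterozygous cells on feeders, and in part for the placental gene Plac1, at 6.6 in heterozygous cells on feeders. These 2 genes, the helix-loop-helix gene Id2 and the imprinted placental gene Phlda2 had log2 differences of -1.84 to -1.48. A difference between these genes and Rhox6 or Rhox9 was not itself tested.

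**Figure D4:**
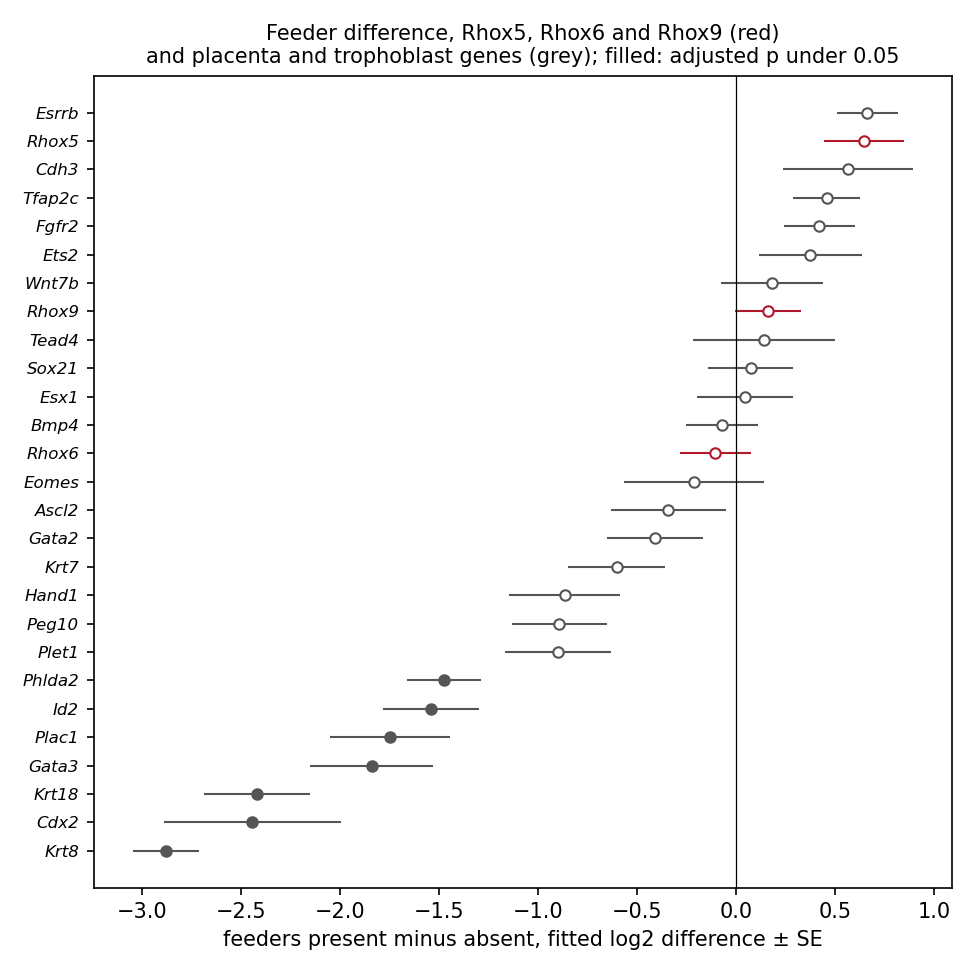
Fitted log2 difference, feeders present minus absent, of Rhox5, Rhox6 and Rhox9 (red) and of the 24 tested genes of the placenta and trophoblast list (grey), with bars of 1 SE from the additive model; filled points have an adjusted p under 0.05. The 7 filled points lie between -2.88 and -1.48, and Rhox5 (0.65), Rhox9 (0.16) and Rhox6 (-0.10) lie above them.

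Between genotypes none of the 24 placenta and trophoblast genes passed the test, which called 0.032% of all tested genes. Of them, 14 were lower and 4 higher in cells labelled null in both feeder conditions, 58.3% lower against 29.1% of all genes tested. The signalling gene Wnt7b read 25.8 in cells labelled null and 106.2 in heterozygous cells on feeders, and 29.8 in cells labelled null and 71.4 in heterozygous cells without feeders. Plet1, a surface protein of trophoblast progenitors, read 8.9 in cells labelled null and 27 in heterozygous cells on feeders, and 22 in cells labelled null and 51.1 in heterozygous cells without feeders. Plac1 had the opposite sign, at 22 in cells labelled null and 6.6 in heterozygous cells on feeders, and 112.7 in cells labelled null and 24.1 in heterozygous cells without feeders.

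Many genes of the germline and cancer-testis list are, like the Rhox cluster, known to be held silent by promoter methylation in somatic cells of the mouse. Of 19 tested members, 1 fell in cells labelled null and 0 rose by limma, against 0.032% of all tested genes called. This was Fmr1nb, an X-linked cancer/testis gene already known from earlier results of these data, so its count is no independent evidence. With no filter, no variance trend or 1 factor only, the limma test called 0 genes by genotype. Fmr1nb read 32.3 in cells labelled null and 382.4 in heterozygous cells on feeders, and 27.4 in cells labelled null and 369 in heterozygous cells without feeders. Of the 19 genes, 10 were lower and 0 higher in both feeder conditions, 52.6% lower against 29.1% of all genes. The 10 include Zfp42, which is also in the list of ES cell markers, so they are not all germline genes held silent in this way. The meiotic cohesin gene Stag3 read 101.5 in cells labelled null and 271.3 in heterozygous cells on feeders, and 76.9 in cells labelled null and 153.1 in heterozygous cells without feeders. Sycp3, of the synaptonemal complex, read 180.8 in cells labelled null and 343.5 in heterozygous cells on feeders, and 95.7 in cells labelled null and 226.8 in heterozygous cells without feeders. The germ cell RNA-binding gene Dazl read 43.7 in cells labelled null and 95.8 in heterozygous cells on feeders, and 33.7 in cells labelled null and 73.2 in heterozygous cells without feeders. None of these 3 passed the test.

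Factors of DNA methylation and repressive chromatin, which include known repressors of the Rhox cluster, were counted next. Of 36 tested, none passed the limma test for genotype, against 0.032% of all tested genes. Of them, 11 were lower in both feeder conditions (30.6%, against 29.1% of all genes) and 9 higher (25%, against 30.5%). The median log2 difference was 0.05 on feeders and -0.06 without feeders. The de novo methyltransferase gene Dnmt3b read 1232 in cells labelled null and 1300.9 in heterozygous cells on feeders, and 1372.5 in cells labelled null and 2446.2 in heterozygous cells without feeders. Tet2, which encodes an enzyme that oxidises methylcytosine, read 203.1 in cells labelled null and 255.5 in heterozygous cells on feeders, and 118.6 in cells labelled null and 159 in heterozygous cells without feeders. Mta3, of the NuRD repressor complex, read 628.8 in cells labelled null and 821.1 in heterozygous cells on feeders, and 543.7 in cells labelled null and 677.2 in heterozygous cells without feeders. H1f2 went the other way. On feeders it read 683 in cells labelled null and 461 in heterozygous cells. Without feeders it read 148.9 in cells labelled null and 61.8 in heterozygous cells. By feeders, the linker histone gene H1f2 rose by 2.49 (SE 0.21, adjusted p = 0.00422), while the NuRD helicase gene Chd4 fell by 0.87 (SE 0.17, adjusted p = 0.0483) and Dnmt3l, a cofactor of de novo methylation, fell by 0.56 (SE 0.09, adjusted p = 0.0346).

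Of 6 genes reported downstream of Rhox5 in mouse testis, 1 passed the filter on dim signals. Unc5c, a netrin receptor gene known to be lowered by Rhox5 in testis, read 44.7 in cells labelled null and 18.4 in heterozygous cells on feeders, and 22.3 in cells labelled null and 14.2 in heterozygous cells without feeders. Its genotype difference did not pass (adjusted p = 0.372 by limma). The other five were Ins2, Adipoq, Retn, Pparg and Ppargc1a.

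Among 12482 other tested genes, Fmr1nb had the profile nearest to that of Rhox5 over the 4 arrays, at a root mean square distance of 0.35. AF067061 and Calml4 followed at 0.55 each, then Rps6kl1 at 0.68 and Fam167a at 0.71. In cells labelled null, Rps6kl1 read 3 on feeders and 2.6 without, and Fam167a 14.6 on feeders and 2.5 without. Readings under the filter signal of 9.46 are shaped by the offset of 4.6, so the distances of Rps6kl1 and Fam167a are not firm. AF067061 was read by a probe set that can bind several transcripts. For the mean profile of Rhox6 and Rhox9 the nearest were Ppp2r3d at 0.05, the X-linked Gm364 at 0.09, 3110040M04Rik at 0.11, Lonrf1 at 0.13 and Uba1y at 0.14. Lonrf1 read 202.8 in cells labelled null and 507.5 in heterozygous cells on feeders, and 191 in cells labelled null and 433.4 in heterozygous cells without feeders. Ppp2r3d read 8.9 in cells labelled null and 35 in heterozygous cells on feeders, and 9 in cells labelled null and 34 in heterozygous cells without feeders. On the arrays labelled null, Ppp2r3d, Gm364, 3110040M04Rik and Uba1y had signals of 7.3 to 11.6, around the filter signal of 9.46, where the offset of 4.6 shapes the log2 values. The order of these genes is therefore not firm. The likenesses rest on 4 arrays and are a description.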

How the data were processed

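Total RNA from 4 cultures was hybridised to 1 array each. The authors deposited linear MAS5 signals (array intensity); per the submitters' processing notes the tool was MAS5, and its version is not given in the sources used here. The 2% trimmed mean was 100 and the median 16.1 to 18 on each array, so no scaling was added. After 64 control probe sets were left out, 34945 probe sets had 1 symbol, 932 several and 9160 none in the table of probe sets, and those with 1 were used. No detection calls were used. The number of arrays limits the precision.

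Signals were taken as log2(signal + 4.6), 4.6 being the 25th percentile, with the brightest probe set per gene; genes under the 40th percentile of mean log2 (a signal of 9.46) were left out. limma 3.58.1 in R 4.3.3 fitted genotype and feeder terms over 12485 genes (eBayes with a trend, two-sided, Benjamini-Hochberg, threshold 0.05). With 4 arrays the fit had 1 residual and 4.75 prior degrees of freedom, and the residual is the unequal effect of 1 factor across the other, not the spread of replicate cultures. Named genes were every Rhox gene, Sall4, Pou5f1, for each list the genes past the threshold and up to 4 with the largest genotype difference of 1 sign, and the 5 nearest profiles. The members and lists were chosen with earlier results of these data known. Lists were other Rhox genes, X-linked flanking genes, germline and cancer-testis genes, methylation and chromatin factors, placenta genes, Rhox5 targets, the Sall family and cell type markers. Promoter sequence was from RefSeq (GRCm38.p6), matched by symbol.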

Additional observations from a re-analysis of the deposited data

Results flagged for a closer look

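Rhox13 was picked out because its differences pointed opposite ways in single pairs of arrays, and the difference between the pairs was not tested. Its genotype difference (labelled null minus heterozygous, log2) was -0.66 on feeders and 0.49 without feeders. Its feeder difference (feeders minus no feeders) was -1.05 in cells labelled null and 0.10 in heterozygous cells. Rhox6 likewise had a feeder difference of -0.29 in cells labelled null and 0.09 in heterozygous cells, which was not tested either.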

How the results depend on the processing

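The genotype differences of Rhox5, Rhox6 and Rhox9 kept their direction under 4 other offsets and normalizations and the scaling to Pou5f1 added after seeing the data. Each gene has 1 probe set, so the 2 settings on probe sets could not move these values. Rhox5 ranged from -3.50 to -3.34 on feeders and from -4.25 to -3.80 without feeders, Rhox6 from -1.69 to -1.51 and from -1.29 to -0.83, and Rhox9 from -1.60 to -1.41 and from -1.55 to -1.10. The difference between the feeder conditions ranged from 0.30 to 0.81 for Rhox5, from -0.86 to -0.35 for Rhox6 and from -0.50 to -0.01 for Rhox9. The fitted feeder difference kept its direction under the same 4 offsets and normalizations. The other 6 settings with all arrays leave the estimate as it is and bear on its p alone. No adjusted p passed under any of the 10, the lowest being 0.09998 for Rhox5. Leaving out 1 array needed the model with 1 factor, in which genotype and feeders are no longer balanced: the feeder difference then ran from -1.45 to 2.74 for Rhox5, from -0.90 to 0.70 for Rhox6 and from -0.59 to 0.91 for Rhox9.

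The 595 genes called by feeders became 269 without a filter, 268 with one at the 60th percentile, 1354 with every probe set, 384 with the mean of probe sets, 183 with no variance trend and 231 with 1 factor only. With 1 factor they became 23 without the array labelled null on feeders, 46 without the heterozygous array on feeders, 534 without the array labelled null without feeders and 313 without the heterozygous array without feeders. The 4 genes called by genotype became 7 with quantile normalization or median centring, 14 with every probe set, and 0 by limma with 1 factor only, with no variance trend, with any array left out, without a filter or with one at the 60th percentile (from 0 to 0); the cause was not tested. Genotype was compared within feeder conditions by the additive fit itself, and no block of replicates could be added with 1 array per group. Signal over background limits the weak genes, since no detection calls were used.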

Other observations

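Some other X-linked genes were also low on the arrays labelled null. Without Rhox5, Rhox6 and Rhox9, 11 of 413 tested X-linked genes were at least 2-fold lower in both feeder conditions, 2.66% against 0.801% of all tested genes, and 2 of the 413 were at least 2-fold higher, as were 45 of all 12485, with no test. By any amount, 99 of the 413 were lower in both feeder conditions (24.0%, against 29.1% of all genes). Another 144 were higher in both (34.9%, against 30.5%). The X-linked median was 0.08 on feeders and -0.01 without feeders on the log2 scale. Among the 11, Tsx read 4.4 on feeders and 8.2 without in cells labelled null, under the filter signal of 9.46. The following genes were picked after their values were seen. Slc7a3, an amino acid transporter gene, read 353.6 in cells labelled null and 870.4 in heterozygous cells on feeders, and 181.3 in cells labelled null and 927 in heterozygous cells without feeders. Klhl13 read 481.6 in cells labelled null and 1238.1 in heterozygous cells on feeders, and 354 in cells labelled null and 1249.9 in heterozygous cells without feeders. Mageb16, of the melanoma antigen family, read 202 in cells labelled null and 516.1 in heterozygous cells on feeders, and 247.1 in cells labelled null and 697.2 in heterozygous cells without feeders.

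In the lists not described above, the genotype test called 0 members by limma, against 0.032% of all tested genes. By feeders, 2 of the 21 tested flanking genes rose, the lysosomal membrane gene Lamp2 by 1.44 (SE 0.14, adjusted p = 0.0063) and the glutamate receptor gene Gria3 by 2.86 (SE 0.39, adjusted p = 0.018), and 0 fell. Gria3 read 0.8 in cells labelled null and 4.3 in heterozygous cells without feeders, both under the filter signal of 9.46. Of 4 Sall family genes 0 passed by either term. Sall3, a relative of Sall4, had the largest genotype difference among them, with 41.1 in cells labelled null and 5.2 in heterozygous cells on feeders, and 83.2 in cells labelled null and 2.4 in heterozygous cells without feeders (adjusted p = 0.126 by limma). Of 13 ES cell markers, Klf4 rose by 0.91 (adjusted p = 0.0228) and Lin28a fell by 1.02 (adjusted p = 0.0172) on feeders. Between genotypes, Fgf4 read 167 in cells labelled null and 516.3 in heterozygous cells on feeders (adjusted p = 0.0839 by limma over both conditions). Without feeders it read 103.3 in cells labelled null and 400.5 in heterozygous cells. Utf1, Fbxo15 and Esrrb were also lower in cells labelled null in both conditions. No marker was higher in both. Of 17 endoderm markers 5 rose on feeders, against 3.88% of all genes, and 1 of them, Pdgfra, is also in the fibroblast list. The endoderm regulators Gata4, Gata6 and Sox17 had feeder differences of -0.68, -0.88 and -1.04, which did not pass. Of 11 trophectoderm markers 5 fell on feeders, against 0.881% of all genes. These were Krt8, Krt18, Cdx2, Gata3 and Plac1, all already counted in the placenta and trophoblast list, so this is no separate result. The limits given there for Cdx2, Gata3 and Plac1 hold here too. Of 10 germ cell markers 0 passed by either term, while 2 were at least 2-fold lower in cells labelled null in both feeder conditions, against 0.801% of all tested genes. They were Dppa3 and Dazl, and Dazl was already counted in the germline and cancer-testis list. The larger of these differences was that of Dppa3, which read 68.4 in cells labelled null and 251.8 in heterozygous cells on feeders, and 29.5 in cells labelled null and 219.2 in heterozygous cells without feeders.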
